A study of Mus musculus with 32 samples.

Results

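The adhesion molecules of the endothelial surface were followed through all samples of a mouse model of colorectal cancer (CRC) liver metastasis. The group held 10 genes, *Sele*, *Selp*, *Vcam1*, *Icam1*, *Icam2*, *Pecam1*, *Cdh5*, *Esam*, *Mcam* and *Cd34*, chosen by gene name. They were measured by 13 of the 55681 probes of the array, and *Vcam1*, *Mcam* and *Cd34* had 2 probes each. For all 10 genes the scanner's flag put a probe well above background throughout at least 1 group, so none was lost to low signal.

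The mRNA of 32 samples was hybridised as 8 groups of 4 on 16 Agilent arrays that read both dyes. Liver endothelial, Ito and Kupffer cells came from male Balb/c mice of 6 to 8 weeks, 14 days after C26 colon carcinoma cells were inoculated into the spleen (the tumor microenvironment or TME groups ET, IT and KT) or after PBS was given instead (the control groups EC, IC and KC). The last groups held tumor cells, from liver metastases (TM) and from CRC primary tumors (TP), and how these cells were isolated was not given in the sources used here. Ito cells, or hepatic stellate cells, store vitamin A, and Kupffer cells are the macrophages that live in the sinusoids. The fractions were made by collagenase perfusion and density gradients, with removal of Kupffer cells by adherence, and were cultured for up to a day, so none was sorted on a surface marker. The study calls the samples biological replicates, and how many mice each holds was not given in the sources used here. Control and TM samples carried the dye Cy3 and TME and TP samples Cy5 on every array, so dye and TME cannot be told apart within a cell type. Control and TME samples of the same number shared an array.

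Leukocytes, and tumor cells that borrow the same route, leave the blood in steps that these molecules serve. Selectins (*Sele*, *Selp*) slow cells on the vessel wall, members of the immunoglobulin family (*Icam1*, *Icam2*, *Vcam1*) hold them through integrins, and junction proteins (*Pecam1*, *Cdh5*, *Esam*) seal the wall and open for passage. *Mcam*, whose protein CD146 the study stained to check the purity of endothelial cells, and *Cd34*, a sialomucin, are further surface proteins used as endothelial markers. E-selectin, VCAM-1 and ICAM-1 are induced by inflammatory cytokines, whereas the sinusoids of the healthy liver are known to hold little of the selectins.

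Levels are log2 of the quantile-normalised intensities of the deposited table, differences are on the same scale, and errors are SD over 4 samples unless stated. A difference was called at a Benjamini-Hochberg adjusted p under 0.05 over all probes (limma). A channel had 38.4 to 57.1% of its 59305 spots well above background, and no spot was saturated. In Ito and in Kupffer cells alike, array 4 ran opposite to arrays 1 to 3. Over 17104 probes that every channel detected, the TME minus control differences of array 4 correlated with the mean of the other arrays at r = -0.66 (Ito) and -0.60 (Kupffer), against 0.19 to 0.28 for Ito arrays 1 to 3 and 0.41 to 0.47 for Kupffer arrays 1 to 3. On array 4, 9 of the 10 adhesion molecules in Ito cells and 7 of 10 in Kupffer cells went against the mean of the other arrays. Of the 17104 probes, 71.0% in Ito cells and 70.6% in Kupffer cells did the same, so this was a trait of the arrays as a whole. The labels were kept as given, and the results they touch are given with and without both arrays, a choice made after seeing the data. TME Ito replicate 2 also stood apart in its carcinoma markers, and control Kupffer replicate 3 in its hepatocyte markers, which summed to 14.4 against 15.9 to 16.5 in the other KC samples. Sums of a list are the log2 of its summed linear intensities throughout, so they follow its brightest genes. The EC samples lay in close pairs, with replicates 1 and 4 a median of 0.062 apart and replicates 2 and 3 a median of 0.064 apart (log2, bright probes), against 0.227 to 0.240 across the pairs. Replicates 1 to 3 of KT (0.075 to 0.092) and of IC (0.093 to 0.103) and replicates 1 and 2 of KC (0.098) also lay close. Fits without array 4 rest on these samples, and how far they are independent was not tested.

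The fractions were first set against marker genes of liver cell types. All 10 sinusoidal endothelial markers (*Stab1*, *Stab2*, *Lyve1*, *Clec4g* and others) were well above background on every array of EC, ET, IC, KC and KT. The log2 of their summed intensity was 16.1 to 16.4 in EC, a mean of 14.9 in IC and 13.7 to 14.4 in KC. The macrophage list (11 genes) summed to 15.6 to 16.1 in EC, 16.6 to 18.9 in IC and 16.7 to 19.2 in KC. Without array 4 it summed to 16.60 to 16.86 in IC and 16.73 to 17.74 in KC. The stellate cell list (12 genes) was no higher in IC (17.1 to 18.2, and 17.06 to 17.44 without array 4) than in EC (17.96 to 18.34). That sum follows *Dcn*, its brightest gene (mean 17.40 in IC and 18.13 in EC). *Lrat* (4.16 and 3.47) and *Rgs5* (11.25 and 10.57) were higher in IC than in EC, and the rest of the list was lower. *Lrat* was dim, well above background on only 2 IC arrays and 1 EC array. Transcripts of other cell types were thus measured in every fraction, and in such bulk samples fewer cells of a type and less RNA per cell cannot be told apart. By immunochemistry for a protein marker of each cell type, the study itself reported high purity of all its isolated fractions. In TM and in TP, 5 of the 10 sinusoidal markers were not well above background on any array and none was on all 4. Of the 6 carcinoma markers, *Krt18* alone was above background on all 4 TM arrays, and *Epcam* was on none.

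The probe sequences bear on how far a level can be read, and some of those of the genes with 2 probes are shown for that reason. The brighter probes of *Vcam1* and *Cd34* are not printed. The brighter probe of *Mcam* (mm9, chr9:43950664-43950723, plus strand) holds a run of 20 alternating G and T bases, in capitals, and bases 11 to 40 of it are printed. The other *Mcam* probe (chr9:43949385-43949444, plus strand), the *Vcam1* probe of higher variance (chr3:115828953-115829012, minus strand) and the dimmer *Cd34* probe (chr1:196785280-196785339, plus strand) hold no such run, and are printed whole, 5′ to 3′.
Mcam, probe with the run: ttgagGTGTGTGTGTGTGTGTGTGTataca
Mcam, other probe: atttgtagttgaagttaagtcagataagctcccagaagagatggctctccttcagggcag
Vcam1: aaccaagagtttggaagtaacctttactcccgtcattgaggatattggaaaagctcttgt
Cd34: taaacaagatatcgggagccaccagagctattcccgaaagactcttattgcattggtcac

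The *Mcam* probe with the run moved like other probes that hold one. The array has 74 further probes, for other genes, with at least 16 alternating G and T bases. All 74 were well above background in every channel, and their median correlation with this *Mcam* probe over the 24 liver cell samples was r = 0.97, against -0.16 for the 17029 probes without such a run that were likewise well above background throughout. The 3 probes most like it, for *Plekhg3*, *Gm626* and *4933427D06Rik*, all held such a run (r = 0.993 to 0.996). All 74 were also lower in EC than in IC and passed the limma test, with a median difference of -1.55, where the *Mcam* probe showed -1.56. Its values are therefore named as those of the probe with the run, and those of the other probe stand beside them.

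**Figure D1:**
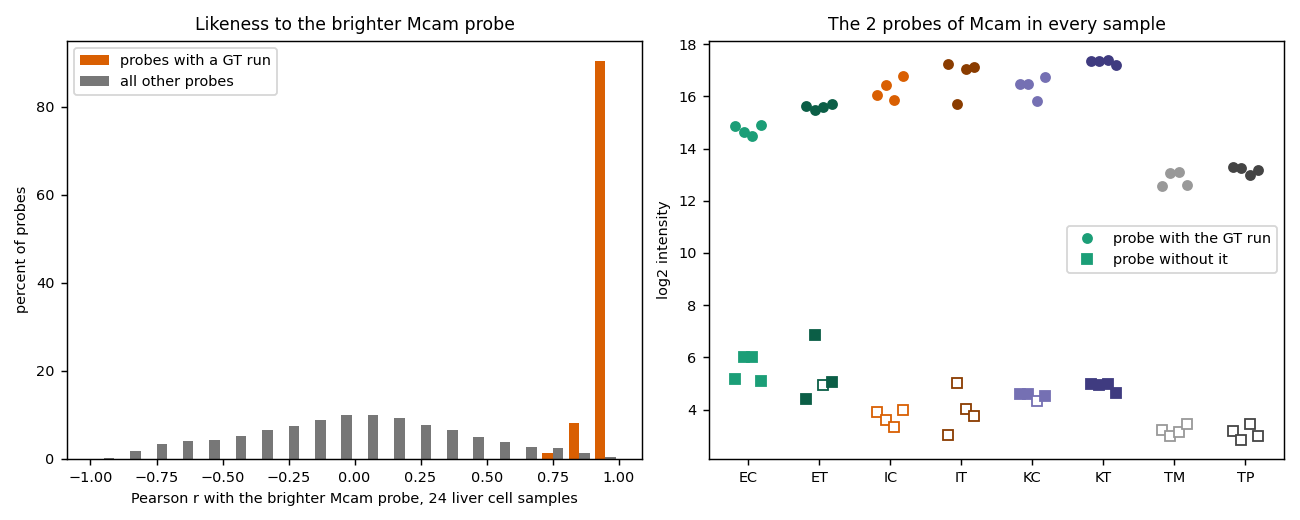
Left, the percent of probes (y axis) by Pearson correlation with the Mcam probe that holds a GT run (x axis) over the 24 liver cell samples, for the 74 other probes with such a run (orange) and for all other probes (gray). Right, log2 intensity of both Mcam probes in every sample of the 8 groups, open symbols being not well above background: the probe with the run (circles) was lower in EC than in IC and KC, the other probe (squares) was higher in EC.

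Among control cells, the question was whether these genes marked the endothelial fraction. By the probe without the run, *Mcam* lay at 5.183, 6.012, 6.003 and 5.108 in EC replicates 1 to 4, at 3.90, 3.58, 3.35 and 3.99 in IC, and at 4.61, 4.61, 4.32 and 4.50 in KC. It was well above background on 4 EC arrays, 0 IC arrays and 3 KC arrays, and EC did not overlap with either other group. EC exceeded IC by 1.87 ± 0.37 (SE; limma adjusted p = 0.00115), at least 1.42-fold given that IC was not well above background, and KC by 1.07 ± 0.37 (limma adjusted p = 0.0398; 0.0867 without array 4). The probe with the run gave the opposite direction, -1.56 against IC and -1.66 against KC.

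Of the 10 genes by their probe of highest variance, 5 were higher in EC than in KC. Only 1 was lower, *Mcam* by the probe with the run, whose other probe gave the opposite direction. In that comparison 21.0% of all probes were called, 12.1% were called higher and 8.95% were called lower. Without array 4 of the Ito and Kupffer cells, 4 were higher and the same *Mcam* probe was lower, against 20.4% of all probes. *Pecam1* (PECAM-1, a junction protein of endothelium, platelets and leukocytes) lay at 11.90 to 11.96 in EC, with a mean of 11.93, and at 9.56 to 10.34 in KC. The groups did not overlap, and the difference was 1.87 ± 0.40 (SE; limma adjusted p = 0.00107). *Esam* (endothelial cell-selective adhesion molecule, a tight junction protein) was higher by 1.75 ± 0.39, *Selp* by 2.06 ± 0.56 and *Icam2* (a constitutive integrin ligand) by 1.42 ± 0.39 (limma adjusted p = 0.00167, 0.00772 and 0.00957). With each close EC pair averaged and counted as 1 sample, 3 were higher and 1 was lower, and *Icam2* and *Selp* did not pass (limma adjusted p = 0.0651 and 0.0562). The gene lost without array 4 was *Icam2*, which stood at 1.18 (limma adjusted p = 0.0502), and without replicate 2 of every group *Selp* stood at 1.94 (limma adjusted p = 0.0693). EC and KC arrays lay on different slides, so slide and cell type cannot be told apart here.

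The fifth was *Cd34*, higher in EC than in KC by 2.16 ± 0.41 (limma adjusted p = 0.000258), but its probes disagreed. By the brighter probe *Cd34* lay at 9.82 ± 0.28 in EC and 7.65 ± 0.52 in KC. By the dimmer probe, which was well above background on all of these arrays, it lay at 6.10 ± 0.15 and 6.11 ± 0.09. Over the 24 liver cell samples the levels of both *Cd34* probes correlated at r = -0.15, so liver differences of this gene rest on 1 probe.

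Between EC and IC, whose arrays shared a slide and a dye, 1 of 10 genes was called, while 9.89% of all probes were. That 1 was *Mcam* by the probe with the run. *Icam2* was higher in EC by 1.16 ± 0.39, *Pecam1* by 0.98 ± 0.40, *Esam* by 0.83 ± 0.39 and *Selp* by 1.34 ± 0.56, and none of these passed (limma adjusted p = 0.0627, 0.142, 0.224 and 0.147). Without array 4 of the Ito and Kupffer cells, 2 genes passed against 11.7% of all probes, the same *Mcam* probe and *Sele*, which was lower in EC by 1.98 ± 0.24 (limma adjusted p = 8.43e-06). The brighter *Vcam1* probe was lower in EC than in IC by 0.79 ± 0.20 (limma adjusted p = 0.00826), while the *Vcam1* probe printed above gave -0.36 ± 0.26 (limma adjusted p = 0.484).

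The levels of *Cdh5*, *Icam1* and *Vcam1* lay close together in the control fractions. *Cdh5* (VE-cadherin, the cadherin of endothelial adherens junctions) lay at 13.94 ± 0.09 in EC, 13.39 ± 0.57 in IC and 13.36 ± 0.42 in KC. Its EC minus KC difference was 0.59, with a 95% interval of -0.05 to 1.23. *Icam1* (the integrin ligand induced by inflammation) lay at 11.24 ± 0.04 in EC, 11.46 ± 0.41 in IC and 11.24 ± 0.20 in KC. *Vcam1* by the probe printed above lay at 13.05 ± 0.39, 13.41 ± 0.17 and 13.27 ± 0.17. In the order of the 6 liver groups no neighbours of *Icam1* or *Vcam1* were free of overlap, and for *Cdh5* only EC stood above the next group, ET.

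**Figure D2:**
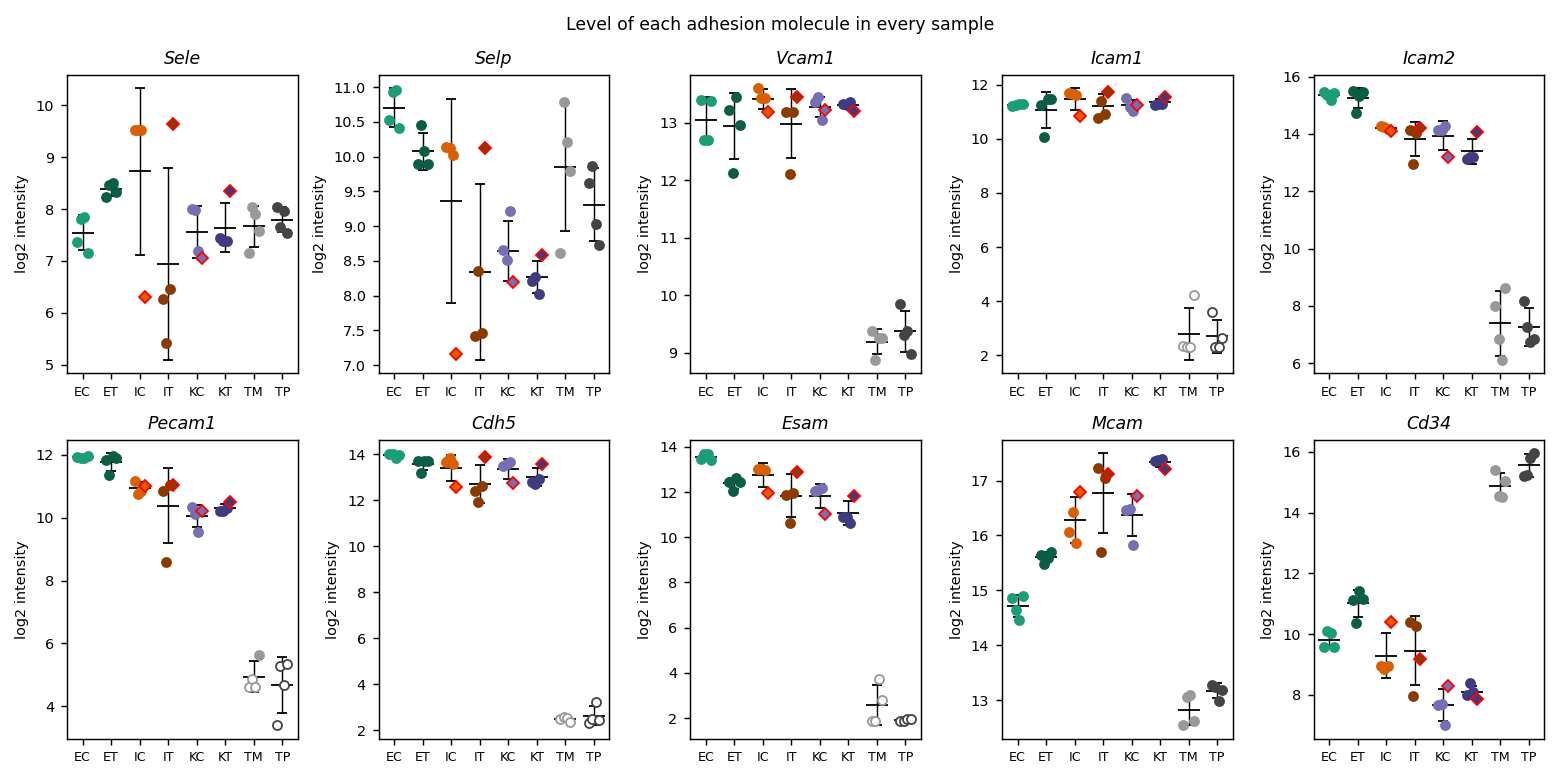
Log2 intensity (y axis) of the 10 adhesion molecules, by the probe of highest variance, in every sample of the 8 groups (x axis). Points are samples, bars the mean and SD of 4, open points not well above background, and red-edged diamonds replicate 4 of Ito and Kupffer cells. Cdh5, Esam and Icam1 are not above background in the tumor groups, Cd34 is highest there, and Sele and Selp split the Ito samples by replicate 4.

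In endothelial cells, TME minus control passed for 0 of the 10 genes, while 1.14% of all probes passed (limma). At an unadjusted p under 0.05, 3 genes remained, *Cd34*, *Esam* and *Mcam* by the probe with the run, and the methods' t-test with Benjamini-Hochberg adjustment called 2. The share of all probes that this t-test called is not given here. *Esam* lay at 13.47, 13.70, 13.67 and 13.43 in EC and at 12.44, 12.04, 12.60 and 12.46 in ET. Every ET sample was below every EC sample, by 1.18 ± 0.39 on average (SE; limma adjusted p = 0.215, and 0.0451 without array 4 of the other cell types, which enters through the shared spread and where 1.64% of all probes passed). With each close EC pair counted as 1 sample, the limma adjusted p was 0.848. *Sele* (E-selectin, made by cytokine-activated endothelium) lay at 7.37, 7.80, 7.85 and 7.15 in EC and at 8.23, 8.47, 8.50 and 8.33 in ET. Each ET value was higher, by 0.84 ± 0.63 on average, with a 95% interval of -0.46 to 2.14 (0.37 to 1.31 without array 4, limma adjusted p = 0.067).

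*Cd34* by the brighter probe lay at 9.57, 10.09, 10.03 and 9.58 in EC and at 11.13, 10.36, 11.41 and 11.15 in ET. The groups did not overlap (difference 1.20 ± 0.41, limma adjusted p = 0.234), whereas the dimmer probe gave 0.02 ± 0.22. *Mcam* gave 0.89 ± 0.25 by the probe with the run (limma adjusted p = 0.0897) and -0.27 by the other probe, with a 95% interval of -1.03 to 0.49. For the other genes the 95% intervals of ET minus EC ran from -0.99 to 0.66 (*Pecam1*), -0.99 to 0.28 (*Cdh5*), -0.93 to 0.55 (*Icam1*), -0.92 to 0.70 (*Icam2*), -0.64 to 0.42 (*Vcam1*) and -1.77 to 0.52 (*Selp*). The median over the 10 genes was -0.14, against 0.01 over all probes. In the same samples the neutrophil list (8 genes) summed to 9.24 to 10.05 in EC and 11.75 to 12.96 in ET, and the sinusoidal list to 16.1 to 16.4 and 14.9 to 15.6, and their part in these differences was not tested.

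In Ito cells, TME minus control passed for 0 of 10 genes under the labels, while 0.289% of all probes passed (limma). At an unadjusted p under 0.05 there were 3, *Cdh5*, *Esam* and *Sele*, and the methods' t-test called 0. Both selectins split these samples most widely. *Sele* lay at 9.52, 9.53, 9.53 and 6.31 in IC replicates 1 to 4 and at 6.26, 5.41, 6.47 and 9.63 in IT. Replicates 1 to 3 were high in control and low in TME cells, and replicate 4 was the reverse.

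*Selp* (P-selectin, stored in endothelial granules and platelets) followed the same pattern, with 10.14, 10.13, 10.02 and 7.16 in IC and 7.42, 8.35, 7.47 and 10.13 in IT. *Cdh5* lay at 13.64, 13.81, 13.56 and 12.55 in IC and 12.39, 11.90, 12.63 and 13.87 in IT. *Esam* lay at 13.03, 13.02, 12.97 and 11.94 in IC and 11.88, 10.63, 11.97 and 12.90 in IT. In these 4 genes replicate 4 of each group lay among the values of the opposite group's replicates 1 to 3 or close to them.

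Without array 4 of the Ito and Kupffer cells, these 4 genes fell in TME Ito cells and none rose, while 7.66% of all probes passed and 3.97% fell. *Sele* fell by 3.48 ± 0.26 (SE; limma adjusted p = 4.25e-08), *Selp* fell by 2.35 ± 0.39 (limma adjusted p = 0.000514), *Esam* fell by 1.51 ± 0.35 (limma adjusted p = 0.0086) and *Cdh5* fell by 1.36 ± 0.20 (limma adjusted p = 0.000117). Under the labels with all arrays the same differences were -1.78, -1.02, -0.89 and -0.69 (limma adjusted p = 0.351, 0.555, 0.456 and 0.468). The falls of *Esam*, *Cdh5* and *Sele* were smaller without TME Ito replicate 2 as well, at -1.08, -1.16 and -3.16, and that of *Selp* was larger, at -2.65, and all 4 passed.

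The other 6 genes did not pass without array 4 in Ito cells. *Icam1* gave -0.64 (95% interval -1.51 to 0.23), *Icam2* -0.51 (-1.44 to 0.41), *Vcam1* -0.66 (-1.29 to -0.03), *Pecam1* -0.77 (-1.77 to 0.24) and *Cd34* 0.63 (-0.27 to 1.53). *Mcam* gave 0.55 (-0.02 to 1.11) by the probe with the run and 0.41 (-0.53 to 1.36) by the other probe. The median over the 10 genes was -0.71, against 0.00 over all probes. By its brighter probe *Cd34* lay at 8.94, 8.85, 8.94 and 10.40 in IC and at 10.40, 7.96, 10.27 and 9.17 in IT, so TME was higher on arrays 1 and 3 and lower on arrays 2 and 4. TME Ito replicate 2 had the lowest *Pecam1* (8.60) and *Icam2* (12.95) of the 24 liver cell samples. In that sample the carcinoma list summed to 17.2, against 12.2 to 12.3 in the other IT samples. The list summed to only 10.2 to 11.5 in TM and 9.8 to 12.1 in TP, below every EC sample (12.66 to 12.73). It thus did not single out the tumor cells of this study.

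Markers of other cells moved with the same arrays. In replicates 1 to 3 the sinusoidal list summed to at least 14.96 in each IC sample and to 13.3 to 14.6 in IT. The neutrophil list summed to 9.5 to 9.8 in IC and 13.0 to 14.2 in IT, and the hepatocyte list to 17.5 to 17.8 and 17.8 to 19.0. On array 4 the neutrophil list was at 13.8 in IC and 9.9 in IT. Their part in the fall of the adhesion molecules was not tested.

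**Figure D3:**
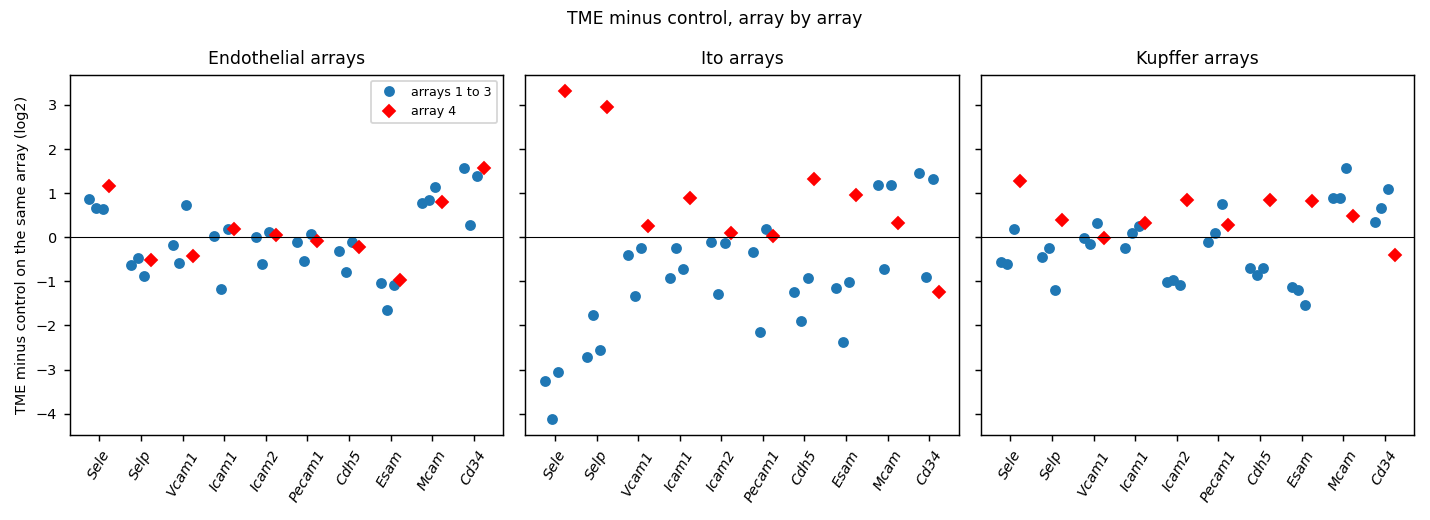
TME minus control on the same array (y axis, log2) for each adhesion molecule (x axis), in endothelial, Ito and Kupffer cells. Blue circles are arrays 1 to 3 and red diamonds array 4. On Ito arrays 1 to 3, Sele differed by -3.25, -4.12 and -3.06 and on array 4 by 3.32.

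In Kupffer cells, 0 of 10 genes passed under the labels, while 0.436% of all probes did (limma), and 1, *Mcam* by the probe with the run, had an unadjusted p under 0.05. The methods' t-test called 0. Without array 4, 3 genes passed against 3.85% of all probes. *Esam* fell by 1.29 ± 0.35 and *Cdh5* fell by 0.76 ± 0.20 (SE; limma adjusted p = 0.0394 and 0.0315). *Esam* lay at 12.03, 12.09, 12.16 and 11.01 in KC and at 10.91, 10.89, 10.61 and 11.84 in KT, so replicate 4 again lay opposite to the rest.

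The third was *Mcam* by the probe with the run, at 1.12 ± 0.27 (limma adjusted p = 0.0231), where the other *Mcam* probe gave 0.45 ± 0.46 (limma adjusted p = 0.772). *Icam2* lay at 14.14, 14.15, 14.26 and 13.20 in KC and at 13.14, 13.18, 13.18 and 14.05 in KT. Its difference without array 4 was -1.02, with a 95% interval of -1.95 to -0.09 (limma adjusted p = 0.252). *Sele* gave -0.32 (-0.87 to 0.22) and *Selp* -0.63 (-1.43 to 0.17). In the same samples the neutrophil list summed to 11.4, 11.3, 11.6 and 13.7 in KC and to 13.4, 13.5, 13.4 and 11.5 in KT. In replicates 1 to 3 the macrophage list summed to 16.7 to 17.7 in KC and 18.77 to 18.80 in KT, and the platelet list (7 genes) to 12.3 to 13.8 and 14.65 to 14.71. Their part in these differences was not tested. When control Kupffer replicate 3 was left out as well, 0 of 10 genes passed in Kupffer cells (limma), with *Esam* at -1.25 (limma adjusted p = 0.115) and *Cdh5* at -0.72 (limma adjusted p = 0.103).

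**Figure D4:**
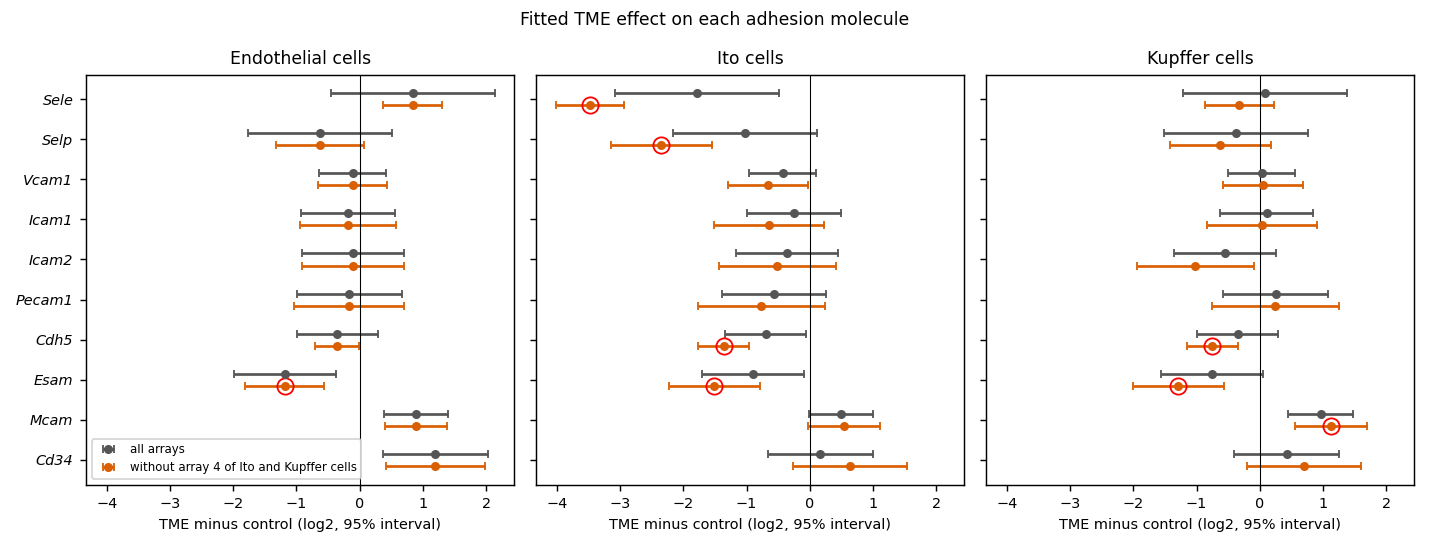
Fitted TME minus control difference (x axis, log2) of each adhesion molecule (y axis) with its 95% interval, in endothelial, Ito and Kupffer cells, with all arrays (gray) and without array 4 of Ito and Kupffer cells (orange). Red rings mark differences called by limma: none with all arrays, and without array 4 Sele, Selp, Cdh5 and Esam in Ito cells, Esam, Cdh5 and Mcam (by the probe with the run) in Kupffer cells, and Esam in endothelial cells.

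Whether the TME effect differed between cell types was tested directly, and a dye effect that is the same in both cell types cancels in that test. With all arrays 0 of 10 genes differed between endothelial and Ito cells, while 0.111% of all probes did (limma), with *Sele* alone at an unadjusted p under 0.05, at 2.62 ± 0.89 (SE; limma adjusted p = 0.664). The methods' t-test called 0. Without array 4, 2 genes passed against 1.67% of all probes. *Sele* was 4.32 ± 0.35 apart (95% interval 3.60 to 5.03, limma adjusted p = 2.93e-07), with ET above EC on all 4 endothelial arrays (0.65 to 1.17) and IT below IC on Ito arrays 1 to 3. *Cdh5* was 1.01 ± 0.26 apart (limma adjusted p = 0.0474), and *Selp* was 1.72 ± 0.51 apart and did not pass (limma adjusted p = 0.1). *Cdh5* did not pass this test when TME Ito replicate 2 was left out as well, while *Sele* did, at 4.00.

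Between endothelial and Kupffer cells 0 of 10 genes differed in their TME effect, with all arrays (0.0808% of all probes) and without array 4 (0.395%). At an unadjusted p under 0.05 there were 0 and 1 (*Sele*, 1.16 ± 0.35), and the methods' t-test with all arrays called 0.

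The tumor cells were set against Kupffer cells of the same slide and dye, TM against KC and TP against KT. In both comparisons 7 of the 10 genes were lower and 1 was higher, while 39.4% and 43.6% of all probes were called and 16.2% and 17.8% were lower. *Cdh5* lay at 2.48, 2.59, 2.52 and 2.36 in TM and 2.34, 2.50, 3.23 and 2.44 in TP, and was not well above background on any tumor array. KC exceeded TM at least 109-fold and KT exceeded TP at least 69.0-fold (limma adjusted p = 4.61e-20 and 1.27e-19), the tumor side of each bound being the lowest signal well above background. *Esam* and *Icam1* were likewise on 0 of 8 tumor arrays above background, and were at least 54.2-fold and 27.6-fold lower in TM than in KC (limma adjusted p = 1.62e-16 and 1.73e-16).

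*Pecam1* was well above background on 1 TM array and 0 TP arrays, and KT exceeded TP at least 13.6-fold (limma adjusted p = 3.92e-12). *Icam2* and *Vcam1* were well above background on all tumor arrays. *Icam2* lay at 7.99, 6.84, 6.11 and 8.62 in TM, lower than in KC by 6.55 ± 0.39 (SE; limma adjusted p = 1.74e-13). *Vcam1* lay at 9.38, 8.88, 9.26 and 9.25 in TM by the probe printed above, lower than in KC by 4.08 ± 0.26, and lower by 3.69 ± 0.20 by the brighter probe (limma adjusted p = 4.21e-13 and 1.28e-14). Both *Vcam1* probes thus gave the same direction. The *Mcam* probe with the run was lower in TM than in KC by 3.55, and the other probe, not well above background on any tumor array, was at least 1.08-fold lower (limma adjusted p = 0.00504).

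*Cd34* ran the other way. It lay at 15.39, 14.54, 14.51 and 15.05 in TM and at 15.22, 15.24, 15.80 and 15.95 in TP, above every liver cell sample, the highest of which was 11.41. TM exceeded KC by 7.22 ± 0.41 and TP exceeded KT by 7.47 ± 0.41 on the log2 scale (limma adjusted p = 4.38e-14 and 1.92e-14). The dimmer probe, printed above, agreed in direction, with TM higher by 3.80 ± 0.22 and TP by 3.97 ± 0.22 (limma adjusted p = 5.27e-14 and 1.88e-14). Of 12 further endothelial surface and transcription genes, 4 (*Erg*, *Sox17*, *Sox18* and *Robo4*) were above background on no TM array and no TP array, whereas *Plvap*, *Cav1* and *Nos3* were above background on all 8 tumor arrays.

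Neither selectin passed the limma test between tumor and Kupffer cells with all arrays. *Sele* lay at 7.15 to 8.03 in TM and 7.06 to 8.01 in KC (difference 0.11, 95% interval -1.19 to 1.41). *Selp* lay at 8.61 to 10.79 in TM and 8.19 to 9.22 in KC (difference 1.20 ± 0.56, limma adjusted p = 0.0912, and 1.05 ± 0.36 with 0.0231 without array 4). In TP *Selp* lay at 8.73 to 9.86, above every KT sample (8.02 to 8.58), by 1.04 ± 0.56, which did not pass with all arrays (limma adjusted p = 0.142), passed without array 4 (1.14, limma adjusted p = 0.0129) and was called by the methods' t-test. With *Selp*, 2 genes were higher and 7 were lower without array 4 in TM against KC and in TP against KT, where 38.2% and 41.7% of all probes were called. In the TP minus TM difference, tumor arrays 1 and 4 correlated with the mean of the other tumor arrays at r = -0.20 and -0.07, against 0.64 for arrays 2 and 3. Between TP and TM 0 of 10 genes passed, while 3.01% of all probes did (limma), with 0 at an unadjusted p under 0.05 and 0 by the methods' t-test. Without array 4 of the Ito and Kupffer cells 0 passed, against 2.80%, with 1 (*Esam*) at an unadjusted p under 0.05. The 95% interval for *Cd34* was -0.15 to 1.51, that for *Sele* -1.17 to 1.43 and that for *Vcam1* -0.34 to 0.71.

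The wider endothelial program was read from lists of other genes. Of 12 further endothelial surface and transcription genes, 3 rose and 1 fell in TME endothelial cells (median difference -0.34), where 1.14% of all probes were called. *Cav1* (caveolin-1, the coat protein of caveolae) rose by 2.37 ± 0.39, *Vwf* (von Willebrand factor) by 1.80 ± 0.44 and *Sox17* by 1.20 ± 0.30, and *Sox18* fell by 2.35 ± 0.34 (SE; limma adjusted p = 0.000875, 0.0349, 0.0408 and 0.000172). Mean *Cav1* was higher in TM (10.71) and TP (10.03) than in EC (6.02) or ET (8.39). *Vwf* (6.47 and 5.69, against 7.26 in ET) and *Sox17* (2.34 and 2.74, against 10.66) were lower in tumor cells than in ET. Which cells carried these rises was not tested, and fits with the close EC pairs averaged are not given for this list. In Ito cells without array 4, 4 of the 12 fell, led by *Erg* (-2.32), *Sox17* (-1.61) and *Robo4* (-1.57), where 3.97% of all probes fell, and with all arrays 0 passed (limma; 3 at an unadjusted p under 0.05). *Sox17* differed in its TME effect between endothelial and Ito cells with all arrays, by 2.19 ± 0.42 (limma adjusted p = 0.0235), and without array 4, by 2.80 ± 0.35.

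Of 15 further junction and diapedesis genes, 0 passed in TME endothelial cells and 0 in TME Ito cells with all arrays (limma; 5 and 1 at an unadjusted p under 0.05). Without array 4, 5 fell in TME Ito cells (3.97% of all probes), led by *Cldn5* (claudin-5, the tight junction claudin of endothelium, -1.87), *Ptprb* (VE-PTP, the phosphatase that binds VE-cadherin, -1.55) and *Tjp1* (ZO-1, -1.31). *Cldn5* also fell in TME Kupffer cells without array 4, by 1.80 ± 0.38 (limma adjusted p = 0.00846). Of 10 further sialomucins and selectin ligand genes, *Podxl* (podocalyxin, a relative of CD34) rose by 1.21 ± 0.28 and *St3gal4* (a sialyltransferase for selectin ligands) fell by 0.85 ± 0.17 in TME endothelial cells (limma adjusted p = 0.0231 and 0.00697), and *Emcn* (endomucin, -2.25) and *Madcam1* (-2.02) fell in TME Ito cells without array 4.

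A list of 15 genes held the inputs to adhesion molecule induction, cytokines, their receptors and NF-κB, along with inhibitors of NF-κB. Of these, 0 passed in any cell type with all arrays (limma). At an unadjusted p under 0.05 endothelial cells had 1, Ito cells 4 and Kupffer cells 1. Without array 4, 3 fell in TME Ito cells (3.97% of all probes), *Tnfaip3* (the inhibitor A20, -1.43), *Nfkb1* (the p105 subunit, -1.07) and *Nfkbia* (the inhibitor IκBα, -0.99). Their limma adjusted p-values were 0.0165, 0.000624 and 0.0178. Of 12 leukocyte ligands of these adhesion molecules, 0 passed with all arrays (limma; 0, 3 and 0 in endothelial, Ito and Kupffer cells at an unadjusted p under 0.05). Without array 4, 3 rose in TME Ito cells (3.69% of all probes), among them *Spn* (CD43, 3.56) and *Itgb7* (the β7 integrin chain, 2.40). Both had higher means in the tumor cells than in any liver group. *Spn* lay at 11.57 in TM and 12.15 in TP, against 5.36 to 7.70 in the liver groups. *Itgb7* lay at 13.61 and 12.94, against 8.31 to 11.81. Which cells carried the rise was not tested.

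Across the 24 liver cell samples the levels of *Pecam1* and *Icam2* were the most alike of the group (Pearson r = 0.86), followed by *Icam2* and *Esam* (0.83), *Cdh5* and *Selp* (0.82) and *Cdh5* and *Esam* (0.82). These are descriptions over samples that share arrays and cell fractions. Among 18199 named candidates, *Sh2d3c* (0.97), *Sox7* (0.96) and *Sh3tc1* (0.94) were most like *Cdh5*, and *Fam124a* (0.96), *Gm10791* (0.95) and *Myct1* (0.95) were most like *Esam*. *Klhl6* (0.96) and *Fcgr2b* (0.95) were among the 3 most like *Pecam1*, *Slc12a5* (0.96) was the most like *Icam2*, and *Kdm6b* (0.85) the most like *Icam1*. *Col4a3bp* (0.89), *Mll3* (0.86) and *Tnfaip3* (0.85) were the 3 most like *Vcam1*, and *Fgf23* (0.92) led for *Sele* and *Emc4* (0.95) for *Cd34*.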

How the data were processed

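Samples were grouped by their titles, and the dyes and slides came from the labels and scanner headers. The authors deposited Agilent Feature Extraction intensity values per spot and channel, and a linear table of quantile-normalised intensity for each probe in each sample, in which each column followed its channel's processed signal (rank correlation at least 0.9996). The log2 of that deposited table was fitted with limma 3.58.1 (lmFit and eBayes, R 4.3.3) to the 8 groups, over 55681 probes, and 10 comparisons were made. Each gene was represented by its probe of highest variance, as in the study's methods. Detection used the scanner's own flag. At least N-fold bounds used normexp (offset 50), loess and Aquantile values. Probe coordinates are those in the scanner output (mm9), and their place in exons or UTRs was not analysed here. Precision is limited by there being 4 arrays in a group, and p-values measure the spread between these samples only. Replicates differed from each other by a median of 0.06 to 0.75 (log2) over bright probes. Control and TME samples of the same number share an array, and their deviations from the group means correlated between -0.64 and 0.40. The lowest values were those of array 4 of Ito (-0.64) and Kupffer cells (-0.57), which ran opposite to the others. The endothelial arrays gave 0.05 to 0.40. Whether the numbers pair the samples beyond the array was not settled.

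Named were all members, up to 3 genes each way from each list among those called, and genes among the 3 most like each member, and some genes that this rule names are not reported here. The members, lists and tests were chosen with earlier results of these data known. The fits were tested on simulated data.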

Additional observations from a re-analysis of the deposited data

Results flagged for a closer look

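A gap test on the 4 samples of each group was run for 10 genes in 8 groups (80 tests). In 16 tests it marked a sample that lay far from the other 3, often the same sample for several genes. Chance marks about 1 in 20 single tests, but the genes are read from the same samples, so the 80 tests are not independent. The gap is given as a share of the group's whole range. Replicate 4 of the control Ito cells was marked for *Icam1* (0.912), *Sele* (0.996), *Selp* (0.957), *Esam* (0.945) and *Cd34* (0.940). Replicate 4 of the control Kupffer cells was marked for *Cdh5* (0.840), *Icam2* (0.892) and *Esam* (0.889), and replicate 4 of the TME Kupffer cells for *Icam1* (0.848), *Icam2* (0.950) and *Sele* (0.945). TME Ito replicate 2 was marked for *Pecam1* (0.915), *Icam2* (0.874) and the *Mcam* probe with the GT run (0.879). The remaining 2 were *Cdh5* in ET replicate 2 (0.986) and *Icam1* in TM replicate 4 (0.983), the latter not well above background.

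The TME effect differed between endothelial and Ito cells for *Sele* (4.32) and *Cdh5* (1.01) when array 4 of the Ito and Kupffer cells was left out, and for neither with all arrays.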

How the results depend on the processing

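Leaving out array 4 of the Ito and Kupffer cells, leaving out TME Ito replicate 2 as well, the replicate block without array 4, and *Mcam* by its probe without the GT run were alternatives chosen after seeing the data. The first 3 are given in that order. The share of all probes called is given above for all arrays and without array 4 only. Counts under the other settings thus have no such share beside them and are not read as a trait of the members. Called members numbered 0 with all arrays for TME minus control. In Ito cells they numbered 4 without array 4, 6 without TME Ito replicate 2 as well and 4 with the block, and 0 to 4 on leaving out each replicate number. The 6 include the 4 that fell without array 4, and the directions of the others are not given here. In Kupffer cells called members numbered 3, 3 and 3, 1 with loess, 1 with 75th percentile scaling and 0 to 1 on leaving out each number. In endothelial cells they numbered 1, 4 and 3, 1 with loess, 4 with only the groups compared and 2 by the methods' t-test. For the difference of the TME effect between endothelial and Ito cells, 0 became 2, 2 and 3, and 0 to 1 on leaving out each number. Between EC and IC, 1 became 2, 4 and 2, 3 with normexp and quantile, 3 with loess, 2 with the filter on dim probes, 3 with only the groups compared, 3 by the methods' t-test, 2 with the brightest probe, 0 at the methods' limits and 1 to 2 on leaving out each number. Between EC and KC, 6 became 1 at the methods' limits. Leaving out control Kupffer replicate 3 with array 4, also chosen later, gave 4 in Ito cells, 0 in Kupffer cells, 3 in endothelial cells, 2 between EC and IC and 2 for the difference of the TME effect between endothelial and Ito cells. Averaging the close EC pairs, also chosen later, gave 4 between EC and KC and 0 in endothelial cells. The cause was not tested. By its other probe, *Mcam* reversed from -1.56 to 1.87 (EC minus IC) and from -1.66 to 1.07 (EC minus KC). Over the 36 differences of single members followed, 585 recomputed values kept their direction and call, 66 passed newly, 12 no longer passed and these 2 reversed. The array as a replicate block with all arrays (correlation 0.08) changed no call, nor did differences within arrays. Dim levels in the tumor groups give bounds only.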
